A study of Rattus norvegicus with 29 samples.

Results

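Homer, Shank and mGlu5 form a linked set of proteins at the excitatory synapse, and their transcripts are described here in the nucleus accumbens shell of rats that drank ethanol. The members were taken as every probe set annotated to exactly 1 of the symbols Homer1, Homer2, Homer3, Shank1, Shank2, Shank3 and Grm5, with each probe set kept apart. This gave 16 of 31099 probe sets, standing for 7 of 14218 named genes, and 5 of the 16 belong to Homer1. The family was chosen by measured values, since Homer1 had already been seen to differ between the groups in these arrays, so the group differences of Homer1 are a description. Where a count of calls includes Homer1, nothing is read from it.

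The tissue came from P rats, a line bred for high voluntary alcohol drinking. The groups were water only (n = 9), limited access to ethanol (n = 10) and continuous ethanol (n = 10), and all 3 were P rats, so no group without that genetic background was measured. The ethanol concentration, the hours of access, the length of exposure, the time of tissue collection, and the age and sex of the rats are not given in the sources used here. The design text names 10 samples per group, so a water sample was not analysed here. The labels do not say that each sample was a separate animal, and p-values therefore measure the spread between these samples, part of which may be technical.

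Homer proteins are scaffolds of the postsynaptic density. The long forms bind group I metabotropic glutamate receptors and Shank through an N-terminal EVH1 domain and join into multimers through a coiled coil, while a short Homer1 form without the coiled coil is made after neuronal activity and uncouples these links. Shank proteins hold Homer and the PSD-95 complex together, and Grm5 encodes mGlu5, the main group I receptor of striatal projection neurons, which signals through phospholipase C and calcium release. Homer and mGlu5 are known for a part in the behavioural response to alcohol and other drugs in the accumbens.

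Values are RMA expression values on a log2 scale, in which 1 unit is a 2-fold difference, from 3 prime biased arrays. RMA brings all arrays to nearly the same distribution, so a rise or fall shared by every transcript would be lost. Array medians lay between 8.17 and 8.21, and pairs of arrays correlated at 0.971 to 0.997 over the tested probe sets. Of 20 markers of medium spiny neurons, the projection neurons of the accumbens, 19 were measured and all 19 were bright enough to be tested, among them Drd1 (12.15 in water), Drd2 (10.05) and Penk (13.56). Probe sets with a mean at or below 6.86 were left out, which left 21729 tested probe sets, and 14 of the 16 members passed. Homer2 1368872_a_at and Homer3 1370212_at did not pass. A brightness is comparable between arrays for 1 probe set, but not between probe sets.

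Of 7 members, 4 (Homer1, Homer3, Shank3 and Grm5) have a promoter in the RefSeq-derived table of rat assembly GRCr8. The Homer1 promoter is shown because Homer1 is the member whose probe sets moved apart. It lies on the plus strand at chr2:26278762-26279011, which are the 250 bases before the annotated start. It is printed from 5′ to 3′ without capitals, since none of the letters searched was found in it.
Homer1 promoter: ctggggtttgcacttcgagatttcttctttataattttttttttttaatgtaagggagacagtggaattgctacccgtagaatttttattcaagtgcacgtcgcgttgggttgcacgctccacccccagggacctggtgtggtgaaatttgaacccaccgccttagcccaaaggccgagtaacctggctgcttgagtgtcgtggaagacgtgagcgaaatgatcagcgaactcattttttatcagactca
Searches on both strands covered the cAMP response element TGACGTCA, found in 1.59% of 33469 promoters of this length, and its shorter core TGACG, found in 18.2% and contained in the full element. They also covered the AP-1 motif TGANTCA, found in 6.34%, and the CArG box, found in 1.50%. None of the 4 members' windows held any of these letters, which says nothing about sites elsewhere in the genes.

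The Homer1 probe sets went in different directions with continuous ethanol. The 1370454_at probe set was lower, 1370997_at was higher, and the remaining 3 differed little between groups. The short and long Homer1 transcripts differ at the 3 prime end, where these arrays read, but the transcript form that each probe set reads was not assigned here. Tissue was measured in bulk, so fewer cells of a type and less RNA per cell cannot be told apart.

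Homer1 1370454_at lay in water arrays at 9.77 at the lowest, 10.29 at the median and 10.68 at the highest. In limited access arrays it lay at 9.70, 10.10 and 10.50. In continuous arrays it lay at 9.19, 9.42 and 9.81. The continuous arrays were the low ones: 9 of 10 were below the whole water range, while the limited access arrays covered almost the same span as water. The means were 10.26 ± 0.27 (SD, n = 9) in water, 10.09 ± 0.25 (SD, n = 10) in limited access and 9.47 ± 0.21 (SD, n = 10) in continuous ethanol. The continuous minus water difference was -0.78 ± 0.11 (SE), which is 1.72-fold lower, and all 10 continuous arrays were below the water mean. Limited access minus water was -0.17 ± 0.11 (SE), and limited access minus continuous was 0.62 ± 0.10 (SE), with 8 of 10 limited access arrays above the whole continuous range.

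Homer1 1370997_at lay in water arrays at 9.20 at the lowest, 9.65 at the median and 10.00 at the highest. In limited access arrays it lay at 9.62, 10.29 and 11.00. In continuous arrays it lay at 9.52, 10.49 and 10.68. Here both ethanol groups were high: 9 of 10 continuous and 8 of 10 limited access arrays exceeded the whole water range, and only continuous replicate 7, at 9.52, lay below the water mean in its group. The means were 9.65 ± 0.27 (SD, n = 9) in water, 10.29 ± 0.41 (SD, n = 10) in limited access and 10.42 ± 0.34 (SD, n = 10) in continuous ethanol. The continuous minus water difference was 0.78 ± 0.15 (SE), which is 1.71-fold higher. Limited access minus water was 0.65 ± 0.15 (SE), and limited access minus continuous was -0.13 ± 0.15 (SE), a difference of less than the spread within either group. Without continuous replicate 7 the continuous minus water difference was 0.88.

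The other 3 Homer1 probe sets stayed near their water levels. Their means in water, limited access and continuous arrays were 11.50, 11.56 and 11.48 for 1368318_at, the 1 Homer1 probe set that carries a RefSeq accession of the gene. They were 7.70, 7.76 and 7.70 for 1368319_a_at, and 9.76, 9.83 and 9.75 for 1370656_a_at. The group means of these 3 probe sets spanned at most 0.08, against 0.78 for each of the pair that moved.

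**Figure D1:**
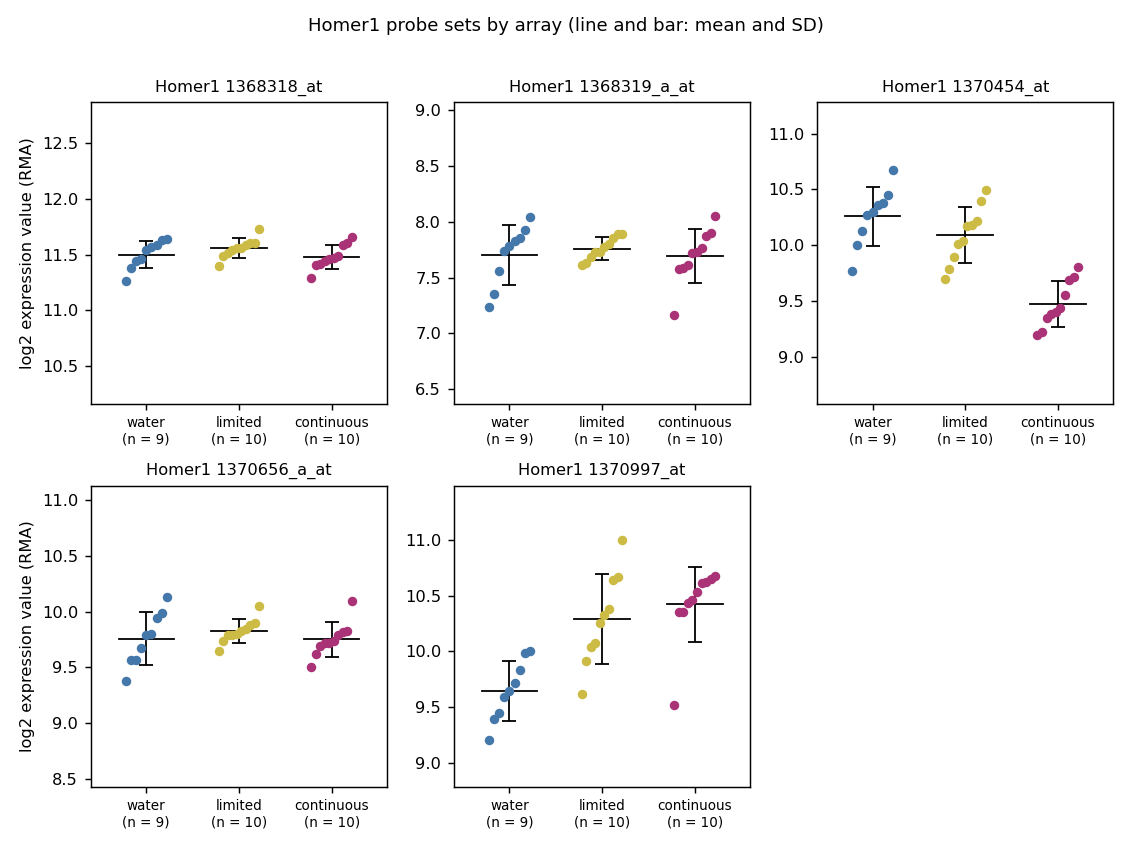
Log2 RMA expression value (vertical axis, 2.7 units in each panel) of the 5 Homer1 probe sets in water, limited access and continuous ethanol arrays. Each point is 1 array, placed from low to high within its group, and lines with bars are the mean and SD. In 1370454_at the continuous arrays are low, in 1370997_at both ethanol groups are high, and continuous replicate 7 stands at 9.52.

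With these directions, the 1370997_at minus 1370454_at difference within an array was lowest in water, higher in limited access and highest in continuous arrays. Only its change between groups has a meaning, since the brightness of 1 probe set is not comparable with that of another. Against the water mean it was 0.81 higher in limited access arrays and 1.56 higher in continuous arrays, and continuous was 0.75 above limited access. Against the highest array of water, 8 of 10 limited access and 9 of 10 continuous arrays were higher, and 9 of 10 continuous arrays were above the highest limited access array. The ranges overlapped in each comparison. The pair was picked for moving apart, so this is a description.

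**Figure D2:**
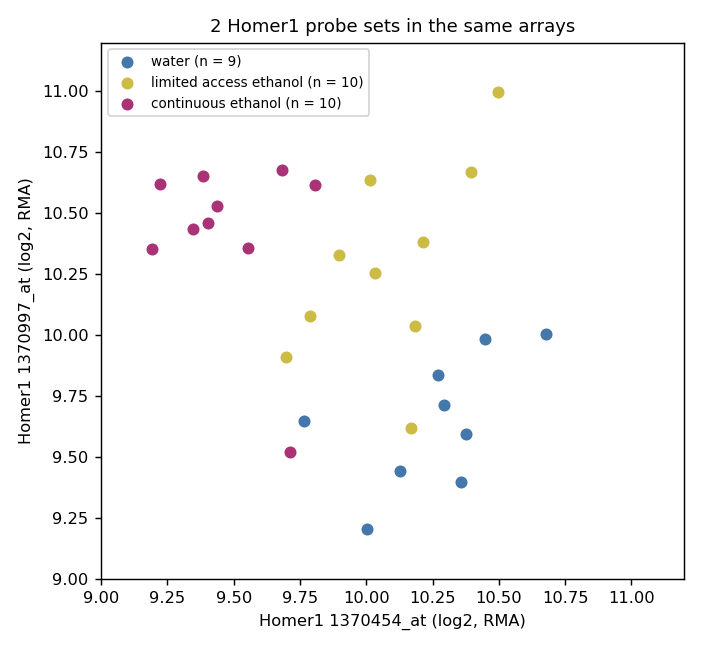
Log2 RMA expression values of Homer1 1370454_at (horizontal axis) and Homer1 1370997_at (vertical axis), 1 point per array, coloured by group. Water arrays lie at the lower right, limited access arrays above them at a similar horizontal position, and 9 of 10 continuous arrays at the upper left, with continuous replicate 7 apart.

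Among the 14 tested members, 2 passed an adjusted p of 0.05 for continuous ethanol against water, against 0.152% of all tested probe sets. Of these, 1 was higher and 1 lower, against 0.0874% higher and 0.0644% lower of all. For limited access against water 0 passed by limma, against 0% of all. For limited access against continuous 1 passed, against 0.00460%, and over the 3 groups 2 passed, against 0.0828%. All of these are Homer1 1370454_at and 1370997_at, which the choice of the family fixed, so nothing is read from the shares. The comparisons share arrays, since the water arrays stand in the first and the second of them and the continuous arrays in the first and the third. At an unadjusted p of 0.05, 5 of 14 members passed for continuous ethanol against water, against 16.1% of all probe sets (4 lower, against 6.48%, and 1 higher, against 9.62%), 1 for limited access against water, against 4.44%, and 3 for limited access against continuous, against 9.31%. The ranges of the groups did not part for any of the 14 members in any comparison, against 0.0322%, 0.00460% and 0% of all probe sets.

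**Figure D3:**
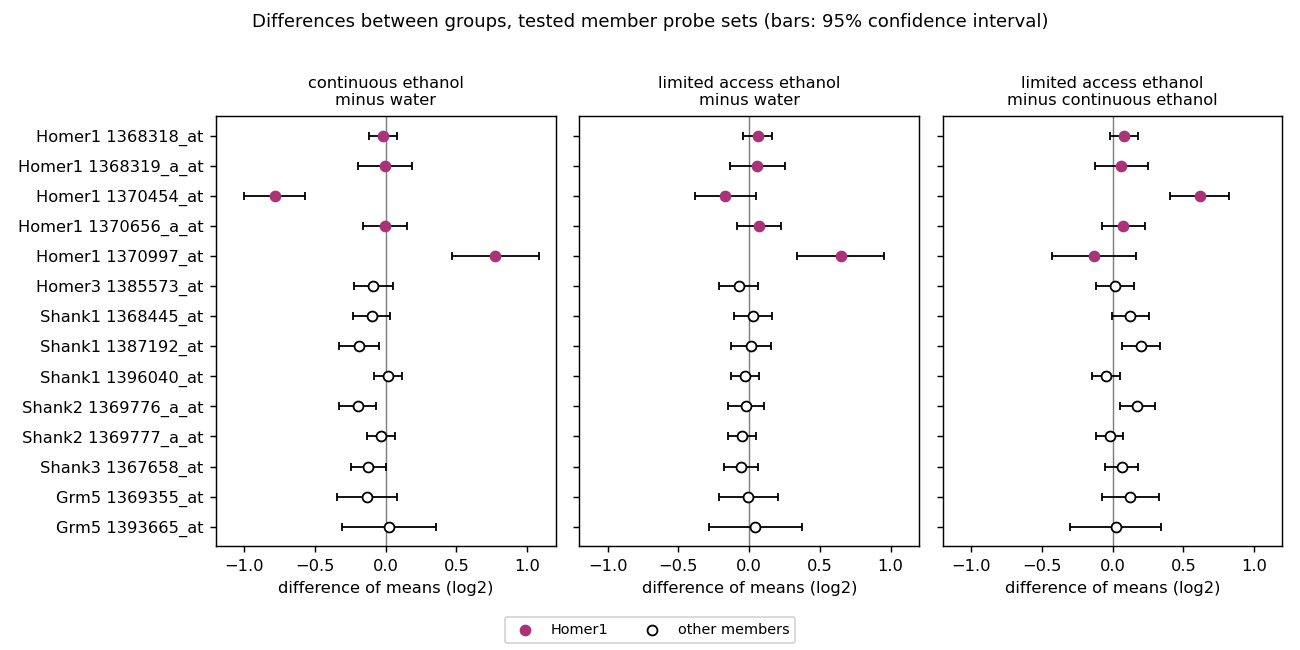
Difference of group means (horizontal axis, log2) of the 14 tested members in the 3 comparisons, with 95% confidence intervals from limma. Filled points are Homer1 probe sets and open points the other members. The Homer1 probe sets other than 1370454_at and 1370997_at and the Homer3, Shank and Grm5 probe sets lie within 0.20 of 0.

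None of the 9 tested probe sets of Homer3, Shank1, Shank2, Shank3 and Grm5 passed an adjusted p of 0.05 by limma in any of the 3 comparisons. All members were chosen with earlier results of these data known, so the counts of these 9 are a description too. At an unadjusted p of 0.05, 3 of the 9 passed for continuous ethanol against water, 0 for limited access against water and 2 for limited access against continuous, beside 16.1%, 4.44% and 9.31% of all tested probe sets. For continuous ethanol against water, 7 of 9 were lower, with a median of -0.10 and a range of -0.20 to 0.02. Over all tested probe sets the median was 0.00, and 52.5% were higher. Their median for limited access against water was -0.02, with a range of -0.07 to 0.04 and a smallest adjusted p of 0.972 by limma.

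Among the members other than Homer1, the largest continuous minus water difference was in Shank2, whose protein joins Homer to the PSD-95 complex. Its 1369776_a_at probe set had a lowest, median and highest value of 7.16, 7.38 and 7.73 in water, 7.16, 7.37 and 7.58 in limited access and 7.0, 7.18 and 7.32 in continuous arrays. The ranges overlapped, and all 10 continuous arrays lay below the water mean. The difference was -0.20 ± 0.06 (SE), with an unadjusted p of 0.00354 and an adjusted p of 0.158 by limma. Limited access minus continuous was 0.17 ± 0.06 (SE), with an adjusted p of 0.526 by limma. The other Shank2 probe set, 1369777_a_at, which carries a RefSeq accession, differed by -0.03 ± 0.05 (SE) between continuous ethanol and water. The deviations of the Shank2 probe sets within groups had an r of -0.17 (permutation p = 0.391, adjusted p = 0.489 over 5 relations).

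Shank1, the family member found mainly in brain, had a comparable pattern in 1 of its 3 probe sets. Its 1387192_at probe set had a lowest, median and highest value of 7.71, 7.94 and 8.28 in water, 7.80, 7.95 and 8.35 in limited access and 7.71, 7.80 and 7.96 in continuous arrays. Continuous arrays kept to the lower part of the water range and varied less, with an SD of 0.07 against 0.19 in water and 0.18 in limited access. Continuous minus water was -0.19 ± 0.07 (SE), with an unadjusted p of 0.0102 and an adjusted p of 0.199 by limma, and limited access minus continuous was 0.20 ± 0.07 (SE), with an adjusted p of 0.526. For 1368445_at the continuous minus water difference was -0.10 ± 0.07 (SE), and for 1396040_at it was 0.02 ± 0.05 (SE). Over all arrays the means were 7.93 for 1387192_at, 7.80 for 1368445_at and 12.46 for 1396040_at. Within groups, 1387192_at and 1368445_at varied together (r = 0.40, adjusted permutation p = 0.0299 over 5 relations of probe sets of the same gene; rho = 0.47, adjusted p = 0.0346; r = 0.55 without the 2 farthest arrays). The relations of 1396040_at with them did not pass (r = -0.15 and -0.07).

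Shank3 1367658_at, for the scaffold whose loss causes Phelan-McDermid syndrome in humans, had a lowest, median and highest value of 10.81, 10.92 and 11.07 in water, 10.70, 10.86 and 11.22 in limited access and 10.61, 10.84 and 11.00 in continuous arrays. Of the continuous arrays, 4 of 10 lay below the water range, and so did 5 of 10 limited access arrays. The difference was -0.12 ± 0.06 (SE), with an unadjusted p of 0.0493 and an adjusted p of 0.308 by limma. Homer3 1385573_at differed by -0.09 ± 0.07 (SE) between continuous ethanol and water (adjusted p = 0.528 by limma). The probe sets left out as dim had means in water, limited access and continuous arrays of 6.09, 6.09 and 6.14 for Homer2, and of 6.77, 6.75 and 6.66 for Homer3 1370212_at.

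For Grm5, the receptor of the set, no difference between group means passed the test. Its 1369355_at probe set had means of 8.49 ± 0.36 (SD, n = 9) in water, 8.49 ± 0.11 (SD, n = 10) in limited access and 8.36 ± 0.18 (SD, n = 10) in continuous arrays. Its 1393665_at probe set had means of 9.84 ± 0.57, 9.88 ± 0.15 and 9.86 ± 0.29. The 95% intervals of the continuous minus water difference ran from -0.34 to 0.08 for 1369355_at and from -0.31 to 0.35 for 1393665_at, so a difference within those bounds could not be told from 0 with these arrays.

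The Grm5 probe sets spread widely among the water arrays. For 1393665_at the water arrays ran from 8.71 to 10.49, with water replicates 9 (8.71) and 7 (9.13) low and replicate 5 (10.49) high. The same arrays were at the ends for 1369355_at, with 7.90 in water replicate 9, 8.09 in replicate 7 and 9.16 in replicate 5. The SD of water divided by that of limited access was 3.86 for 1393665_at and 3.25 for 1369355_at, above 98.9% and 98.1% of tested probe sets, where the median ratio was 1.09. These percentiles are a description, and the difference in spread was not tested. Wide water spread was not particular to Grm5: the ratio was 2.66 for Homer1 1368319_a_at, 2.33 for Homer3 1385573_at and 2.23 for Homer1 1370656_a_at. It was 0.51 for Shank3 1367658_at, 0.67 for Homer1 1370997_at and 0.84 for Shank1 1368445_at. Water replicates 9 and 7 also had the lowest median correlation with their own group among water arrays (0.979 and 0.987). The part of this in the spread was not tested. The Grm5 probe sets moved together within groups (r = 0.86, adjusted permutation p = 5e-05 over 5 relations; rho = 0.67, adjusted p = 0.00095; r = 0.77 without the 2 farthest arrays), with r = 0.94 in water, 0.35 in limited access and 0.74 in continuous arrays.

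**Figure D4:**
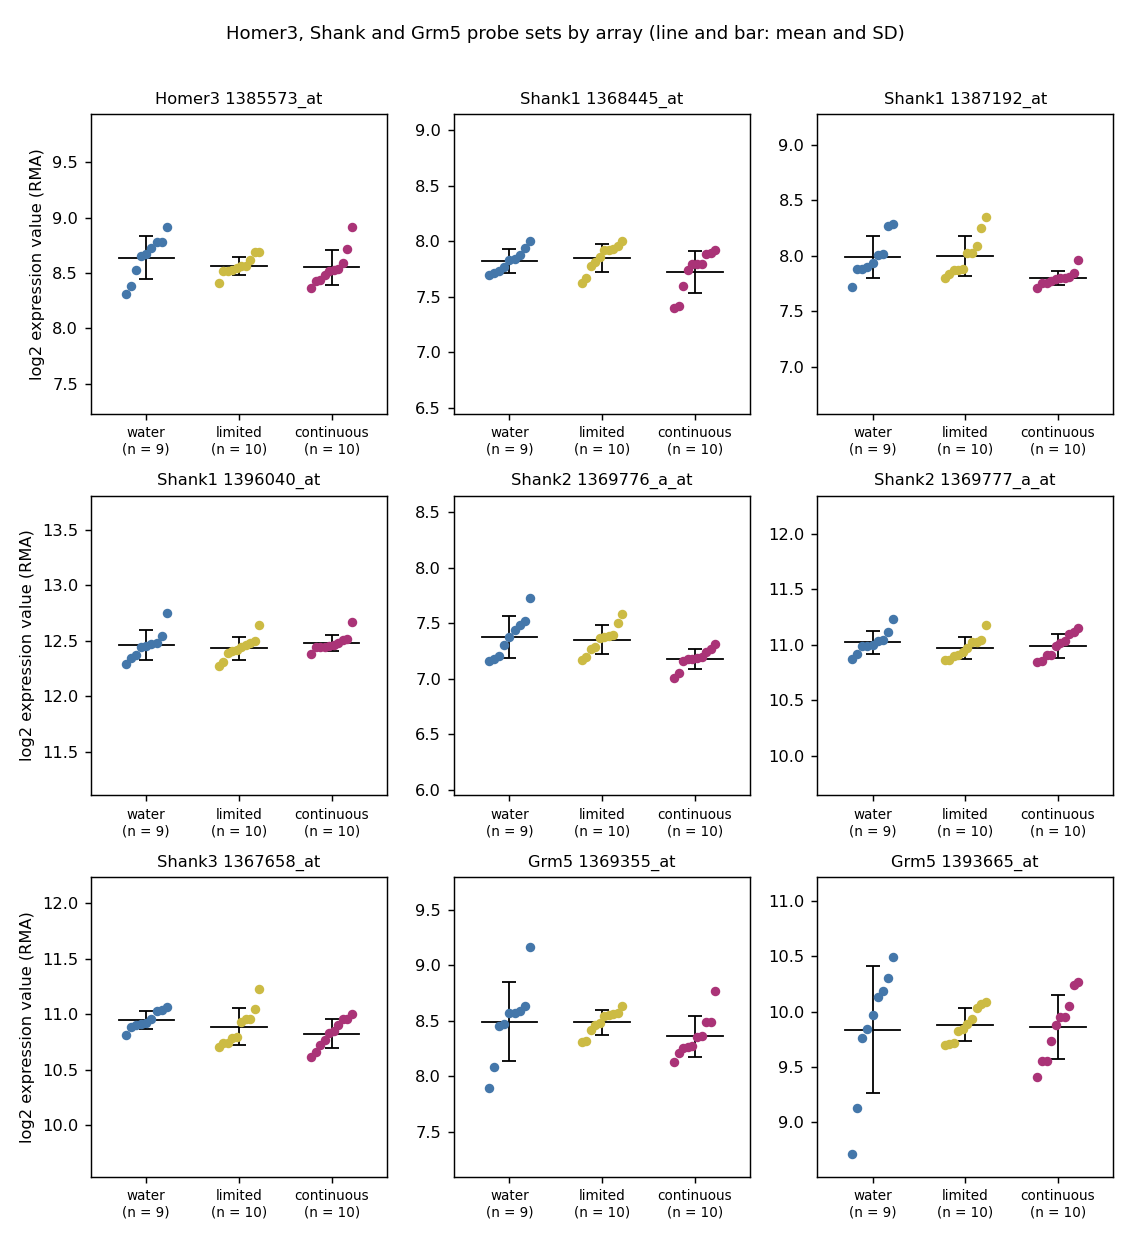
Log2 RMA expression value (vertical axis, 2.7 units in each panel) of the 9 tested Homer3, Shank and Grm5 probe sets by group. Each point is 1 array, placed from low to high within its group, and lines with bars are the mean and SD. The groups overlap in every panel, and the water arrays of Grm5 1393665_at spread from 8.71 to 10.49.

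Within groups, after group means were removed, the 3 Homer1 probe sets whose means stayed level varied together. No relation of the pair that moved passed, with r from 0.21 to 0.39 (smallest adjusted permutation p = 0.0724). Whether the correlations that passed differ from those that did not was not tested. Of 10 Homer1 relations, the 3 among 1368318_at, 1368319_a_at and 1370656_a_at passed (permutation within groups, two-sided, adjusted over the 10). For 1368318_at and 1368319_a_at r was 0.74 (adjusted p = 0.0004; rho = 0.54, adjusted p = 0.0210; r = 0.58 without the 2 farthest arrays). For 1368319_a_at and 1370656_a_at r was 0.64 (adjusted p = 0.00513; rho = 0.62, adjusted p = 0.00730; r = 0.46 without the 2 farthest arrays). For 1368318_at and 1370656_a_at r was 0.66 (adjusted permutation p = 0.002; r = 0.50 without the 2 farthest arrays), but rho was 0.43 with an adjusted p of 0.0676. The 1370454_at and 1370997_at probe sets, which went opposite ways between groups, had a within-group r of 0.32 (adjusted permutation p = 0.137; rho = 0.39, adjusted p = 0.0906; r = 0.30 without the 2 farthest arrays). By group this r was 0.57 in water, 0.56 in limited access and -0.25 in continuous arrays. Without continuous replicate 7 it was 0.51 over all groups, with an adjusted p of 0.0235 by the same permutation test, so the call turns on that array.

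Immediate early genes are transcribed within minutes of neuronal activity without new protein synthesis. Against water, 6 of 24 tested genes of that list rose with continuous ethanol and 0 fell, beside 0.0874% of all tested probe sets that rose. The median change was 0.14, against 0.00 over all tested probe sets. The list was chosen with earlier results of these data known, so nothing is read from these counts. Fos, a subunit of AP-1, rose by 0.79 ± 0.12 (SE; adjusted p = 0.00120 by limma), and Nr4a1, an orphan nuclear receptor, by 0.70 ± 0.09 (SE; adjusted p = 0.000105). Arc, which drives AMPA receptor endocytosis, rose by 0.61 ± 0.11 (SE; adjusted p = 0.0131 by limma), and Junb, another AP-1 subunit, by 0.34 ± 0.06 (SE; adjusted p = 0.00506). Egr1, a zinc finger factor, had a difference of 0.07 (adjusted p = 0.640 by limma), and Bdnf, a neurotrophin, of -0.04 (adjusted p = 0.876). With limited access 0 of 24 passed by limma, with 7 at an unadjusted p of 0.05, beside 4.44% of all tested probe sets.

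From array to array within groups, Homer1 1370997_at varied with Nr4a1, Egr1, Junb, Fos and Arc. Homer1 1370454_at varied with Bdnf alone of the 6 genes named. These relations were added after seeing the data, and their p-values are adjusted over the 12 relations alone. Of all named genes tested, Nr4a1 was the most like 1370997_at and Bdnf the most like 1370454_at, so their p-values are a description. The test is against an r of 0, while the 95th percentile of r over all tested probe sets was 0.480 for 1370997_at. Of 12 relations of the pair with these 6 genes, Homer1 1370997_at passed with 5. Its r was 0.86 with Nr4a1 (adjusted permutation p = 6e-05; rho = 0.77, adjusted p = 0.00024; r = 0.75 without the 2 farthest arrays), with 0.90 in water, 0.93 in limited access and 0.80 in continuous arrays. It was 0.72 with Egr1 (adjusted permutation p = 6e-05; rho = 0.69, adjusted p = 0.00056; 0.58 without the 2 farthest arrays). It was 0.68 with Junb (adjusted permutation p = 0.000576; rho = 0.47, adjusted p = 0.0279; 0.53 without them). It was 0.66 with Fos (adjusted permutation p = 0.00057; rho = 0.61, adjusted p = 0.00267; 0.44 without them). It was 0.61 with Arc (adjusted permutation p = 0.00284), where rho was 0.42 with an adjusted p of 0.0545 and r in water was -0.17.

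Homer1 1370454_at had an r of 0.06 to 0.16 with Fos, Arc, Nr4a1, Egr1 and Junb (smallest adjusted permutation p = 0.585). With Bdnf its r was 0.73 (adjusted permutation p = 8e-05; rho = 0.68, adjusted p = 0.00056; r = 0.67 without the 2 farthest arrays), at 0.96 in water, 0.86 in limited access and 0.37 in continuous arrays. For 1370997_at and Bdnf r was 0.32 (adjusted permutation p = 0.165) and rho 0.48 (adjusted p = 0.0271). Whether the correlations of the pair with a given gene differ was not tested.

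**Figure D5:**
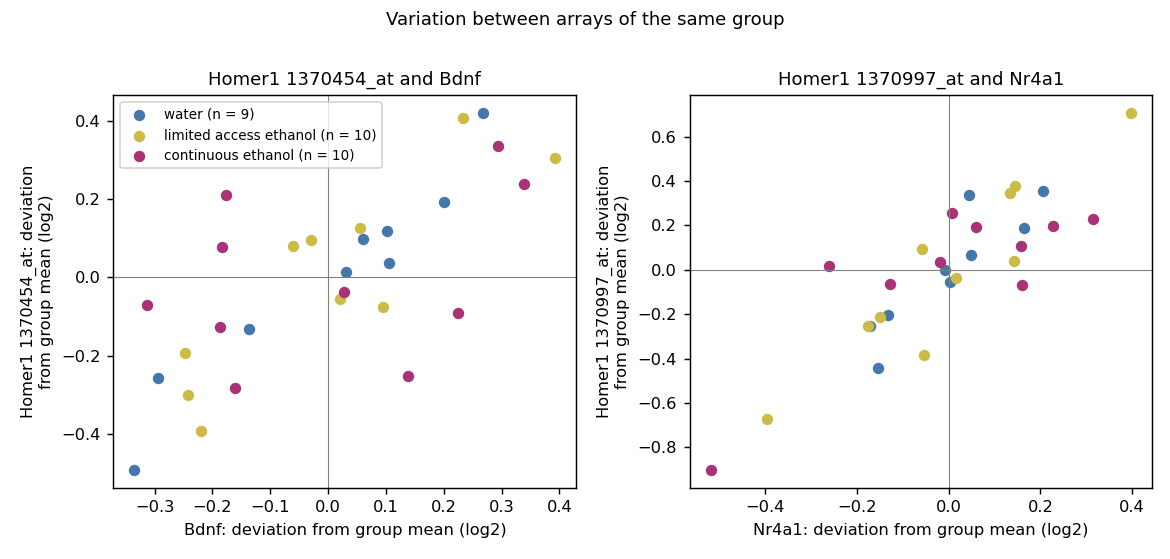
Deviation of each array from its group mean (log2) for Homer1 1370454_at against Bdnf and for Homer1 1370997_at against Nr4a1, coloured by group. Over the 29 arrays r is 0.73 in the first panel and 0.86 in the second. The lowest point of the second panel is continuous replicate 7.

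Over all named probe sets tested, the 5 genes most like 1370454_at by within-group r over 29 arrays were Bdnf (0.73), Vxn (0.69), Kcnmb4 (0.69), a regulatory subunit of the BK potassium channel, Ak5 (0.68), a brain adenylate kinase, and Sstr2 (0.67), a somatostatin receptor. The most alike probe set of another member was Shank1 1396040_at (0.57). The 5 most like 1370997_at were Nr4a1 (0.86), Cacna1c (0.78), the pore subunit of an L-type calcium channel, Naa40 (0.77), an N-terminal acetyltransferase, Pfkfb3 (0.76), a regulator of glycolysis, and Ncor1 (0.75), a transcriptional corepressor. The most alike member was Shank2 1369777_a_at (0.61). The 95th percentile of r over all tested probe sets was 0.375 for 1370454_at and 0.480 for 1370997_at. These genes were selected for a high r, so no test is given for this ranking.

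Marker scores of other cell types moved with parts of these patterns. Scores are means over the markers of their deviation from the mean of all arrays, and 18 relations with the Homer1 pair were examined. Homer1 1370454_at rose within groups with the score of cortical projection neuron markers (r = 0.63, adjusted permutation p = 0.00945; rho = 0.49, adjusted p = 0.0450; r = 0.59 without the 2 farthest arrays). It fell with that of oligodendrocyte markers (r = -0.61, adjusted permutation p = 0.00945; rho = -0.64, adjusted p = 0.00882; r = -0.55 without them). Bdnf went with the same scores, at r = 0.70 with the cortical and -0.74 with the oligodendrocyte score (adjusted permutation p = 0.00027 and 9e-05 over 9 relations). All 10 measured markers of each of these lists were above the limit for dim probe sets. The part of these markers in the relation of 1370454_at to Bdnf was not tested.

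Between the groups, those scores differed little. The cortical score ran from -0.19 to 0.08 in water and from -0.17 to 0.14 in continuous arrays (exact permutation p = 0.631, two-sided). The oligodendrocyte score ran from -0.17 to 0.16 in water and from -0.14 to 0.14 in continuous arrays (exact permutation p = 0.717). With the cortical score as a covariate, the continuous minus water difference of 1370454_at was -0.81 ± 0.08 (SE), and without it -0.78 ± 0.11 (SE). A score that differs so little between groups could hardly change that value, and the part of these markers in it was not tested. Homer1 1370997_at went against the astrocyte score (r = -0.59, adjusted permutation p = 0.0253; rho = -0.50, adjusted p = 0.0450), and without the 2 farthest arrays r was -0.31. With the second principal component of the arrays its rho was 0.58 (adjusted permutation p = 0.0150), its r was 0.35 (adjusted permutation p = 0.206; 0.20 without the 2 farthest arrays), and its r was 0.81 in water, -0.03 in limited access and 0.54 in continuous arrays. The part of that component in the level of 1370997_at was not tested. Continuous replicate 7, lowest for 1370997_at, had the highest astrocyte score (0.26) and microglia score (0.36) of its group and the lowest medium spiny neuron score (-0.24).

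Of the endothelial and mural markers, 13 of 14 were measured and all 13 tested, and their score ran from -0.06 to 0.35 in water and from -0.28 to 0.04 in continuous arrays (exact permutation p = 0.0173, two-sided). None of the 13 passed by limma for continuous ethanol against water, with 4 lower at an unadjusted p of 0.05, beside 6.48% of all tested probe sets. With that score as a covariate, the difference of 1370454_at was -0.83 and that of 1370997_at 0.79. In that fit 1370997_at no longer passed an adjusted p of 0.05 by limma, while 1370454_at did. Beta-actin, whose signal at the 3 prime end minus that at the 5 prime end reflects RNA integrity and labelling, had a value of 1.27 ± 0.08 (SD) in continuous and 1.20 ± 0.05 in water arrays (exact permutation p = 0.0219). The same measure had an exact permutation p of 0.603 for GAPDH and of 0.172 for the mean over beta-actin and GAPDH. With that mean as a covariate, the differences were -0.81 and 0.78. Beta-actin alone was not fitted as a covariate, so its part in the differences was not tested. The second principal component scored 5.70 ± 5.90 (SD) in continuous and -3.47 ± 10.9 in water arrays (exact permutation p = 0.0360). The smallest p was that of the median correlation of an array with the others of its group, at 0.993 ± 0.003 (SD) in continuous and 0.989 ± 0.004 in water arrays (exact permutation p = 0.00299). The arrays of a group share pairs in that measure. Without the 5 arrays lowest on the second component the continuous minus water differences were -0.79 for 1370454_at and 0.65 for 1370997_at. There too 1370454_at passed by limma and 1370997_at did not. These exact tests are not adjusted for the number of array measures, which is 12, and the other 8 measures had a p above 0.05.

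Genes whose proteins act with the members were examined in lists chosen with earlier results of these data known. The mGlu signalling list holds G proteins, phospholipases, calcium release channels and regulators. Of its 29 tested genes, 1 rose with continuous ethanol against water, which is Arc, and 0 fell. Of all tested probe sets, 0.0874% rose and 0.0644% fell. The same Arc probe set is counted among the immediate early genes. The median change of the mGlu signalling list was -0.02. Next by p was Siah1, a ubiquitin ligase that binds group I receptors, at 0.17 ± 0.06 (SE; adjusted p = 0.183 by limma). Of 42 tested partners of Homer and Shank in the postsynaptic density, 0 passed by limma for continuous ethanol against water, with a median of -0.02. At an unadjusted p of 0.05, 3 were higher and 6 lower, beside 9.62% and 6.48% of all tested probe sets. The smallest p of this list was that of Dlg1, the scaffold SAP97, at -0.12 ± 0.03 (SE; adjusted p = 0.125 by limma), followed by Tjap1 at -0.18 ± 0.06 (SE; adjusted p = 0.158).

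With limited access against water, 0 of the 29 and 0 of the 42 passed by limma, and the medians were 0.00 and -0.01. At an unadjusted p of 0.05 there were 2 and 4, beside 4.44% of all tested probe sets. For limited access against continuous, 0 of either list passed by limma, with 2 and 5 at an unadjusted p of 0.05, beside 9.31% of all tested probe sets.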

How the data were processed

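Total RNA of the nucleus accumbens shell was hybridised as biotinylated cRNA to Affymetrix rat arrays, per the labels' protocols. RMA was run by the authors, per the submitters' processing notes, and the deposited numbers span 4.04 to 16.0, from which they were taken to be log2 values. The software, its version and any array batches are not given in the sources used here. Samples were grouped by their titles. Probe sets were named from a platform table, which pairs 20832 with 1 symbol, 436 with several and 9831 with none. The 57 control probe sets and the dimmest 30 percent by mean were left out.

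A linear model of group alone was fitted to the 29 arrays in R 4.3.3 with limma 3.58.1 and its eBayes step (with statmod 1.5.0), and was tested on simulated data. P-values are two-sided and adjusted by the Benjamini-Hochberg method over 21729 probe sets, with a threshold of 0.05; adjusted p-values of single genes are from limma. Changes carry a standard error (SE) and means a standard deviation (SD). Correlations use deviations from group means, with 100000 permutations of arrays within groups, adjusted within each family of relations (Python 3.11.15, scipy 1.17.1); 1e-05 is the smallest unadjusted p they can give. A list gene was represented by its brightest tested probe set. The number of arrays limits the precision.

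Members and gene lists were chosen with earlier results of these data known. The text names every member, genes past the threshold in the mGlu signalling and postsynaptic density lists and otherwise their 2 of smallest p for continuous ethanol against water, and of immediate early genes Fos, Arc, Nr4a1, Egr1, Junb and Bdnf alone, and the 5 genes most like each moved Homer1 probe set. Dlg1 and Tjap1 entered by that rule. Relations with immediate early genes, with array measures and between probe sets of the same gene were added after seeing the data.

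Alternatives were no filter, a 50 percent filter, quantile normalization applied again, median centring, a trended robust prior, array weights, a replicate block, covariates for the 3 prime to 5 prime signal and for leptomeningeal and cortical markers, only the groups compared, the 5 arrays lowest on the second principal component either omitted or blocked, 1 probe set per gene, and each array left out. Covariates for endothelial and medium spiny neuron markers were chosen after seeing the data.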

Additional observations from a re-analysis of the deposited data

Results flagged for a closer look

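Among 48 groups of arrays, 3 held a value far from the others, and chance alone marks about 1 in 20 such groups. Homer1 1370997_at was 9.52 in continuous ethanol replicate 7, where the next lowest array of the group was at 10.35. Homer3 1370212_at, a dim probe set, was 6.99 in the same array, where the next highest was at 6.71. Shank1 1396040_at was 12.67 in continuous ethanol replicate 3, where the next highest was at 12.52; that array also had the lowest leptomeningeal score, -1.48. Homer1 1370454_at differed between the ethanol schedules by 0.62 (limited access minus continuous), a difference that belongs to those for which the family was chosen.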

How the results depend on the processing

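No member's difference that passed changed sign, while some near 0 did, among them 3: continuous ethanol minus water ran from -0.11 to 0.14 under the alternatives for Grm5 1393665_at and from -0.08 to 0.05 for Homer1 1368319_a_at, and limited access minus water from -0.05 to 0.10 for Grm5 1369355_at. For 1370454_at, continuous ethanol minus water ran from -0.83 to -0.74 under 15 alternatives and from -0.85 to -0.73 over 29 omissions of an array. Members called for continuous ethanol against water numbered 2, and 1 without the 5 arrays apart on the second principal component (water replicates 2, 5 and 6 and limited access replicates 6 and 7; 1370997_at 0.65), with them as a block (0.71) and with the endothelial covariate (0.79). It was 1 to 2 over omissions, and 1 without water replicate 5 (0.74). For limited access against continuous the count fell from 1 to 0 in the replicate block, with the 3 prime to 5 prime covariate, with the medium spiny neuron covariate, and without or blocking the 5 arrays. It was 0 to 1 over omissions, and 0 without continuous replicate 1, 2, 4, 6, 8, 9 or 10, limited access replicate 3, 4, 6, 7 or 10, or water replicate 3 or 4. For limited access against water it was 0 to 0 over omissions. Over the 3 groups the count of 2 fell to 1 with the trended prior, with each covariate except the medium spiny neuron score, and without or blocking the 5 arrays, and was 1 to 2 over omissions (1 in 20 of 29). With 1 probe set per gene all 3 counts were 0, because the brightest Homer1 probe set, 1368318_at, then stands for the gene.

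For 1368318_at and 1370997_at the within-group r was 0.58 (adjusted p = 0.00742) without the 5 arrays and 0.24 to 0.46 over omissions, and it passed without limited access replicate 7, water replicate 6 or water replicate 7. With rho, 1368318_at and 1370656_a_at gave 0.43. For 1368319_a_at and 1370997_at omissions gave 0.16 to 0.44, past the threshold without limited access replicate 8 or water replicate 1, 6 or 7. For 1370454_at and 1370997_at they gave 0.20 to 0.51.

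Over all probe sets, 33 passed for continuous ethanol against water, and 12 without the 5 arrays, 14 with them as a block, 20 with 1 probe set per gene, 19 with the endothelial covariate and 50 with the medium spiny neuron covariate. Without water replicates 4, 5 or 8 or limited access replicate 6 there were 94, 18, 59 or 66.

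Of 28 same-number pairs of arrays, 12 correlated over 0.1, with a median of 0.08, against -0.01 over the 252 other pairs. Only 2 of 29 arrays correlated best with their own number. Whether replicate numbers mark a pairing was not tested. The replicate block gave counts of 2, 0 and 0 members and 28, 0 and 0 probe sets in the 3 comparisons.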

Other observations

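No marker of the lists examined passed by limma in any comparison. For continuous ethanol against water, all 16 leptomeningeal markers were lower, with changes from -0.48 to -0.14 and a median of -0.34, against 0.00 over all tested probe sets, and 0 had an unadjusted p under 0.05. Their median was -0.28 for limited access against water. The leptomeningeal score ran from -0.23 to 0.95 in water and from -1.48 to 0.62 in continuous arrays (exact permutation p = 0.189). With it as a covariate, the continuous minus water differences of the Homer1 pair were -0.81 for 1370454_at and 0.69 for 1370997_at. Of 19 medium spiny neuron markers 0 passed, with 5 lower at an unadjusted p of 0.05, beside 6.48% of all tested probe sets. Their median change was -0.07. Of 10 cortical markers 0 passed, with 1 higher at an unadjusted p of 0.05, and of 10 oligodendrocyte markers 0 passed, also with 1 higher. Of 10 astrocyte markers 0 passed, with 2 lower at an unadjusted p of 0.05, and of 10 microglia markers 0 passed, with 0 at that level. Of all tested probe sets, 9.62% were higher and 6.48% lower at that level for continuous ethanol against water, and 0.152% passed.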
